A study of Mus musculus with 12 samples.

Results

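The aminoacyl-tRNA synthetases were followed in mouse embryonic stem cells as a family of 35 genes, 20 for enzymes of the cytosol and 15 for enzymes of the mitochondrion (symbols that end in 2). Probes were chosen by name alone: every probe was taken whose gene name in the scanner files is on the list of 35 symbols. The list itself was chosen with earlier results of these data known. All 35 were found, on 44 of the 55681 non-control probes of the array, with 1 probe for 26 genes and 2 probes for 9. All 44 probes passed the filter on dim probes, which kept 30879 probes that were well above background on all 4 arrays of at least 1 group. The brightest kept probe stood for each gene, so that the members were 35 of 22590 features tested.

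Aminoacyl-tRNA synthetases join each amino acid to its tRNA and so feed every ribosome. The cytosolic and the mitochondrial enzymes are mostly separate proteins, and both are encoded in the nucleus. Several cytosolic enzymes sit together in a multi-synthetase complex held by scaffold proteins, and the genes of many cytosolic enzymes are known targets of ATF4, the transcription factor of the integrated stress response. Embryonic stem cells divide quickly, and growth makes a steady demand on this step of protein synthesis.

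Total RNA was hybridised to 12 one-colour (Cy3) arrays, 4 for each of 3 groups. WT are wild-type embryonic stem cells, Id1KO is an embryonic stem cell line with a knockout of Id1, an inhibitor of basic helix-loop-helix transcription factors, and Id1KO_Zrf1KD is that knockout line infected with pLKO lentivirus carrying hairpins against Zrf1 and held under puromycin. Zrf1 is a ribosome-associated J-domain protein, listed on the array as Dnajc2, and all 3 groups grew in GMEM with 15% serum and LIF. The series text calls the 4 samples of a group independent biological samples. The titles give only the group and a replicate number and name no further line of a genotype. Id1 status and cell line therefore cannot be told apart, nor can the hairpin from virus and selection, as no control hairpin was analysed here.

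A level is given throughout as log2 of the spot's processed signal minus the 75th percentile of its array, so that 0 is that percentile. The 75th percentile itself was 440.7 to 550.2 units on the WT arrays, 393.3 to 491.8 on those of Id1KO and 554.0 to 596.5 on those of Id1KO_Zrf1KD, and 54.8% to 59.3% of spots were well above background. Dnajc2 in WT lay at 2.0 ± 0.12 (mean ± SD, n = 4), against 1.89 ± 0.11 in Id1KO and -0.27 ± 0.08 after the knockdown, 4.47-fold below Id1KO (limma, adjusted p = 9.7e-10). Id1 lay at 0.86 ± 0.20, 1.23 ± 0.31 and 0.68 ± 0.16. Where this probe lies in relation to the deleted part is not known from the labels, so it does not check the knockout. Each of the 3 slides held all 3 groups.

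As a check of the embryonic stem cell label, 9 pluripotency genes were all well above background on all arrays. Of these, 5 were lower and 2 higher in Id1KO than in WT, with Klf4 2.62-fold, Zfp42 2.03-fold and Nanog 2.02-fold lower and Dppa5a 1.42-fold and Tdgf1 1.72-fold higher, and 6 of 9 were lower in Id1KO_Zrf1KD than in WT. Their summed level, in multiples of the 75th percentile and with Dppa5a the brightest gene, ranged from 1028 to 1179 over the WT arrays, from 1079 to 1213 over Id1KO and from 893 to 904 over Id1KO_Zrf1KD. Markers of other cells moved with the groups. The summed level of 10 fibroblast markers was 29.9 to 32.4, 15.1 to 16.4 and 87.5 to 92.9, with 7 of 10 lower in Id1KO than in WT and 10 of 10 higher after the knockdown. Of the 8 that every WT and Id1KO array measured well above background, 6 were lower in Id1KO. Of the 8 that every Id1KO and Id1KO_Zrf1KD array measured so, 8 were higher after the knockdown. Lum, an extracellular matrix gene among the 10, was well above background on none of the 8 WT and Id1KO arrays. It passed the filter only through the knockdown arrays, so its rise there is partly set by the filter. Over all features 29.6% were lower and 42.5% higher in Id1KO than in WT, and 32.3% higher and 39.8% lower after the knockdown. In Id1KO_Zrf1KD against WT, 32.2% of all features were lower and 32.4% higher. The summed level of 9 endoderm markers was 199 to 210, 104 to 109 and 338 to 351. In Id1KO 4 of these 9 were lower, Sparc, the brightest, by 1.91-fold, and 3 were higher (Dab2 5.06-fold, Sox7 2.49-fold and Foxa2 1.99-fold), and after the knockdown 9 of 9 were higher. The summed level of 5 neural markers was 6.97 to 7.53, 3.76 to 4.05 and 5.42 to 5.91, with Tubb3 and Nes lower and Pax6 5.74-fold higher in Id1KO (adjusted p = 1.9e-06; Pax6 was well above background on 3 of 4 WT arrays), and with 2 higher and 3 lower after the knockdown. In such bulk RNA fewer cells of a type and less RNA per cell cannot be told apart, and the part of these markers in the synthetase differences was not tested.

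Cytosolic synthetase genes lay mostly lower in Id1KO than in WT. Of the 20, 13 fell and 3 rose (limma, adjusted p under 0.05), with a median log2 fold change of -0.28. Over all 22590 features the background was 29.6% lower and 42.5% higher (72% in either direction), with a median of 0.15. The arrays of the 2 groups did not overlap for the same numbers of cytosolic genes, 13 lower and 3 higher, against a background of 27.3% and 38%. Among the 13683 features named by a gene symbol, 39.5% were lower and 35.5% higher by the test (adjusted p under 0.05), with a median of -0.04. The cytosolic median was -0.27, -0.25 and -0.26 within the 3 slides. With quantile normalization the median of all features moved to 0.02, and 16 cytosolic genes were then lower and 2 higher.

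Among the cytosolic genes that passed the test, the enzymes for valine, asparagine, glutamine, phenylalanine and alanine had the lowest fold changes. Vars, which charges valine tRNA, lay at 3.67, 3.72, 3.39 and 3.47 on the WT arrays, at 2.87, 2.78, 3.03 and 2.87 in Id1KO and at 3.51, 3.49, 3.24 and 3.42 in Id1KO_Zrf1KD. Nars, the asparagine enzyme, lay at 3.51, 3.56, 3.55 and 3.57, at 3.1, 2.93, 2.88 and 2.73, and at 3.24, 3.1, 3.16 and 3.18. For both genes every Id1KO array was below every WT array. Vars was 1.6-fold lower in Id1KO (log2 fold change -0.68 ± 0.09, SE; adjusted p = 3.7e-05), and Nars was 1.56-fold lower (-0.64 ± 0.07; adjusted p = 8e-06).

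Qars, the glutamine enzyme, lay at 5.33, 5.35, 5.25 and 5.23 in WT, at 4.67, 4.67, 4.64 and 4.66 in Id1KO and at 5.20, 5.23, 5.02 and 5.16 in Id1KO_Zrf1KD. Its 4 Id1KO arrays were almost equal and all below the other 8. It was 1.55-fold lower in Id1KO (-0.63 ± 0.05; adjusted p = 5.8e-07). Farsa, the alpha subunit of the phenylalanine enzyme, lay at 4.26, 4.10, 4.06 and 4.01, at 3.52, 3.57, 3.42 and 3.55, and at 3.94, 3.89, 3.78 and 3.83. Its Id1KO arrays were again the lowest 4 of the 12. It was 1.51-fold lower in Id1KO (-0.59 ± 0.06; adjusted p = 6e-06), and -0.68 on its other probe. The beta subunit gene, Farsb, had a smaller log2 fold change of -0.17 (adjusted p = 0.021), which missed the threshold without WT replicate 1 (adjusted p = 0.051), WT replicate 2 (0.061) or Id1KO replicate 2 (0.053). The difference between the subunits was not tested.

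Aars, the alanine enzyme, lay at 6.35, 6.26, 6.20 and 6.22 in WT, at 5.76, 5.73, 5.88 and 5.80 in Id1KO and at 6.12, 6.12, 5.97 and 6.06 in Id1KO_Zrf1KD. The 3 groups did not overlap. Aars was 1.38-fold lower in Id1KO (-0.47 ± 0.05; adjusted p = 1.2e-05). Its other probe, very dim, was well above background on 2 WT arrays, on no Id1KO array and on 4 Id1KO_Zrf1KD arrays.

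The remaining cytosolic genes that fell in Id1KO had log2 fold changes from -0.42 (Rars, arginine) to -0.20 (Cars, cysteine), with Yars (tyrosine) at -0.37, Kars (lysine) at -0.34, Iars (isoleucine) and Hars (histidine) at -0.28 and Gars (glycine) at -0.22. In Kars and Gars 1 gene serves both the cytosol and the mitochondrion. For Yars the call (adjusted p = 0.024) was lost without WT replicate 1 (0.063), Id1KO replicate 1 (0.062) or Id1KO replicate 4 (0.052), and with the normexp background correction (0.079). Lars (leucine), Mars (methionine) and Tars (threonine) did not pass the test, with log2 fold changes of -0.04, -0.09 and -0.10. Under quantile normalization these were -0.29 (adjusted p = 0.0065), -0.15 (0.026) and -0.26 (0.0021), and in the deposited values Lars (-0.32; 0.0025) and Tars (-0.25; 0.0017) passed too.

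The 3 cytosolic genes that rose were Wars, Dars and Sars. Wars, the tryptophan enzyme, lay at 3.88, 4.02, 4.28 and 4.19 in WT, at 4.60, 4.71, 4.54 and 4.69 in Id1KO and at 5.06, 5.14, 5.28 and 5.15 in Id1KO_Zrf1KD. The groups formed 3 separate steps, with Id1KO in the middle. Wars was 1.45-fold higher in Id1KO than in WT (0.54 ± 0.09; adjusted p = 1.6e-04) and 1.44-fold higher in Id1KO_Zrf1KD than in Id1KO (0.53 ± 0.09; adjusted p = 2.0e-04).

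Dars, the aspartate enzyme, lay at 0.13, 0.14, 0.16 and 0.34 in WT, at 0.78, 0.81, 0.59 and 0.73 in Id1KO and at 0.60, 0.63, 0.62 and 0.50 in Id1KO_Zrf1KD. Every WT array was below the other 8, and the Id1KO and Id1KO_Zrf1KD arrays overlapped. It was 1.45-fold higher in Id1KO (0.53 ± 0.06; adjusted p = 1.7e-05). Sars, the serine enzyme, lay at 5.96, 5.87, 5.79 and 5.79, at 6.14, 6.08, 6.19 and 6.12, and at 5.80, 5.74, 5.64 and 5.73. Its Id1KO arrays were the highest 4 on this scale. The log2 fold change of Sars was 0.28 ± 0.05 on the main scale (adjusted p = 5.5e-04), and it turned to -0.02 (adjusted p = 0.80) under quantile normalization and to -0.04 (0.53) in the deposited values, so the direction for Sars depended on the scaling.

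**Figure D1:**
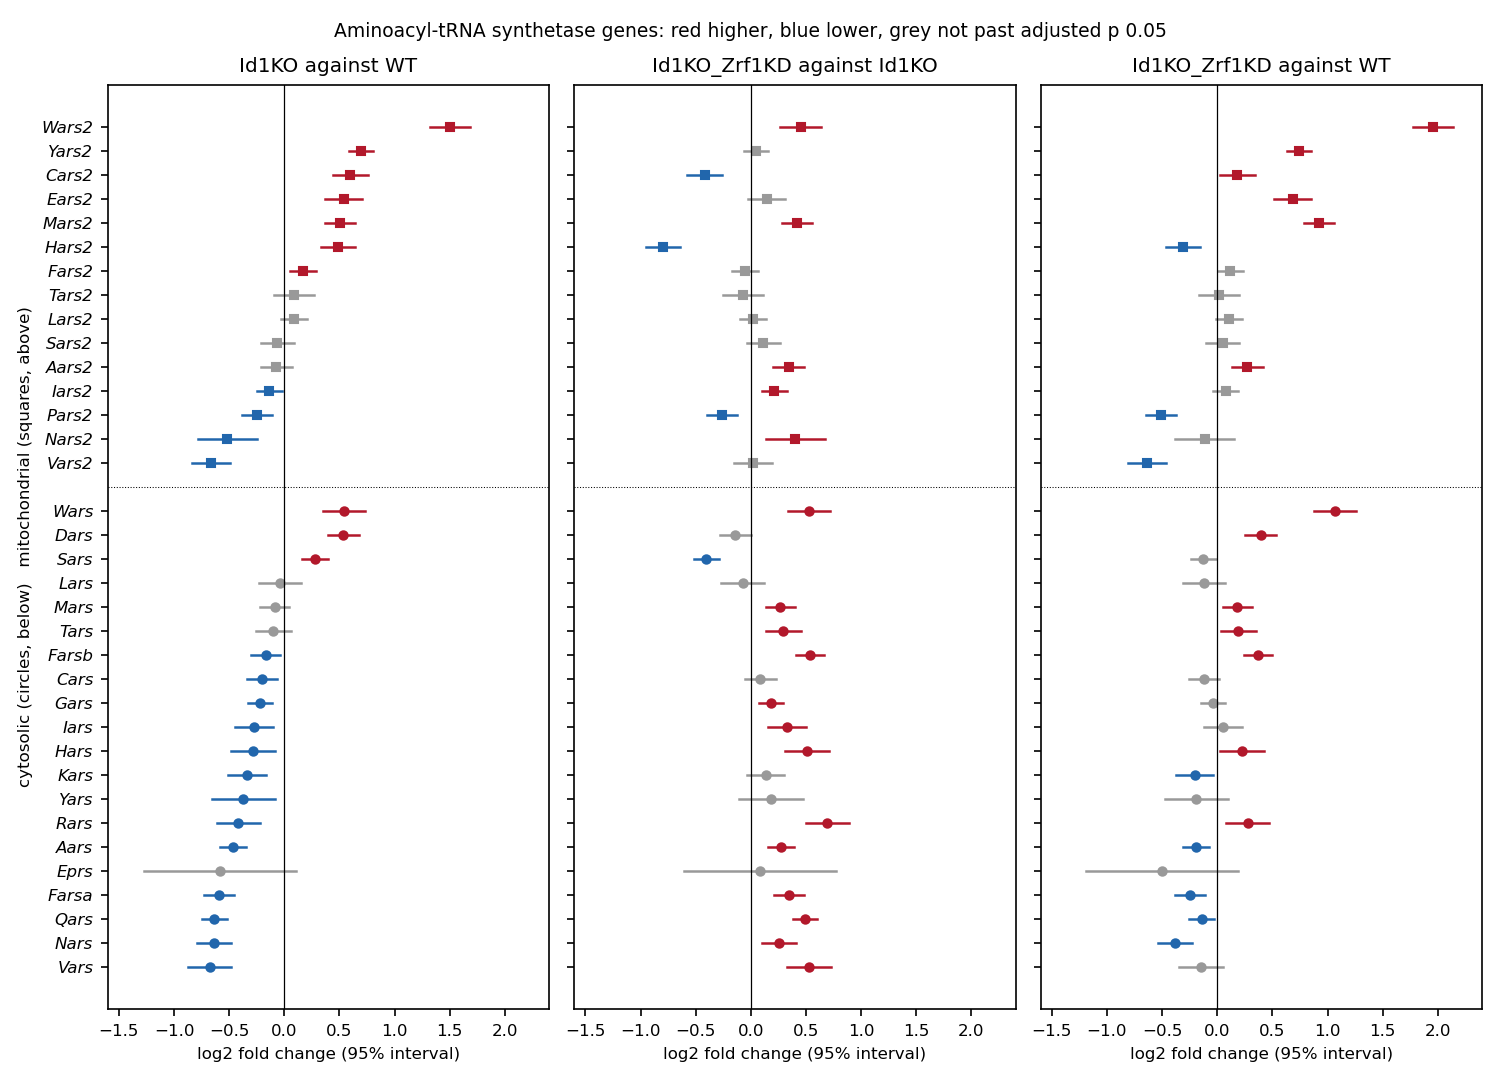
Log2 fold change (horizontal axis, bars are 95% intervals) of the 35 synthetase genes (vertical axis, in the order of Id1KO against WT within each compartment) in the 3 comparisons. Cytosolic genes (circles) lie mostly left of 0 in Id1KO against WT and right of 0 in Id1KO_Zrf1KD against Id1KO, mitochondrial genes (squares) lie on both sides, and Eprs has by far the widest intervals.

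Mitochondrial synthetase genes moved both ways in Id1KO. Of the 15, 7 rose and 4 fell, with a median log2 fold change of 0.09, and 0.0, 0.21 and 0.15 within the slides. The arrays did not overlap for 6 of those higher and 4 of those lower, against a background of 38% and 27.3%. The 7 higher and 4 lower of 15 are shares near the background over all features of 42.5% higher and 29.6% lower. Beside features named by a gene symbol (35.5% higher and 39.5% lower), the share higher was larger and the share lower smaller, which was not tested. The difference between the compartments was described by these counts and medians and was not tested.

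Wars2, the mitochondrial tryptophan enzyme, lay at -3.57, -3.23, -3.34 and -3.57 in WT, at -1.88, -1.87, -1.94 and -2.01 in Id1KO and at -1.53, -1.49, -1.53 and -1.33 in Id1KO_Zrf1KD. Its 3 groups did not overlap, and all 12 arrays were well above background. At 2.84-fold higher in Id1KO than in WT (1.5 ± 0.08; adjusted p = 3e-08), it had the largest fold change of the family in this comparison. The size depended on the processing: the log2 fold change was 0.93 when the background was corrected by normexp, 0.99 over the mean of its probes and 0.76 in the deposited values, against 1.33 under quantile normalization alone.

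The tryptophan pair was read by 2 probes for each gene. The dimmer one of each, which lies nearer the start of the transcript, is shown because it gives each gene another reading; the letters are those of the array files.
Wars, chr12:110104366-110104425 (mm9, minus strand): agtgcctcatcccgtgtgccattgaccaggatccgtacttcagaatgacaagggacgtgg
Wars2, chr3:99009150-99009209 (mm9, plus strand): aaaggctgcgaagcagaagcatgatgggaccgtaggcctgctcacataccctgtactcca
These probes start at base 1036 and base 440 of their target transcripts, and the brighter ones at base 2766 and base 3271. The dimmer Wars probe lay at 0.54, 0.65, 0.60 and 0.68 in WT, at 1.16, 1.13, 1.2 and 1.15 in Id1KO and at 2.02, 2.09, 1.84 and 2.08 in Id1KO_Zrf1KD. It showed the same 3 separate steps, with log2 fold changes of 0.54 (adjusted p = 8.3e-06, each kept probe fitted as a feature of its own) in Id1KO against WT and 0.85 (2.4e-07) in Id1KO_Zrf1KD against Id1KO. The dimmer Wars2 probe lay at -3.76, -3.78, -3.53 and -3.66, at -3.23, -3.48, -2.67 and -3.47, and at -3.05, -3.12, -3.33 and -3.01. It set WT below the other 8 arrays but did not separate Id1KO from Id1KO_Zrf1KD: the log2 fold changes were 0.47 (adjusted p = 0.022) and 0.08 (0.65).

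**Figure D2:**
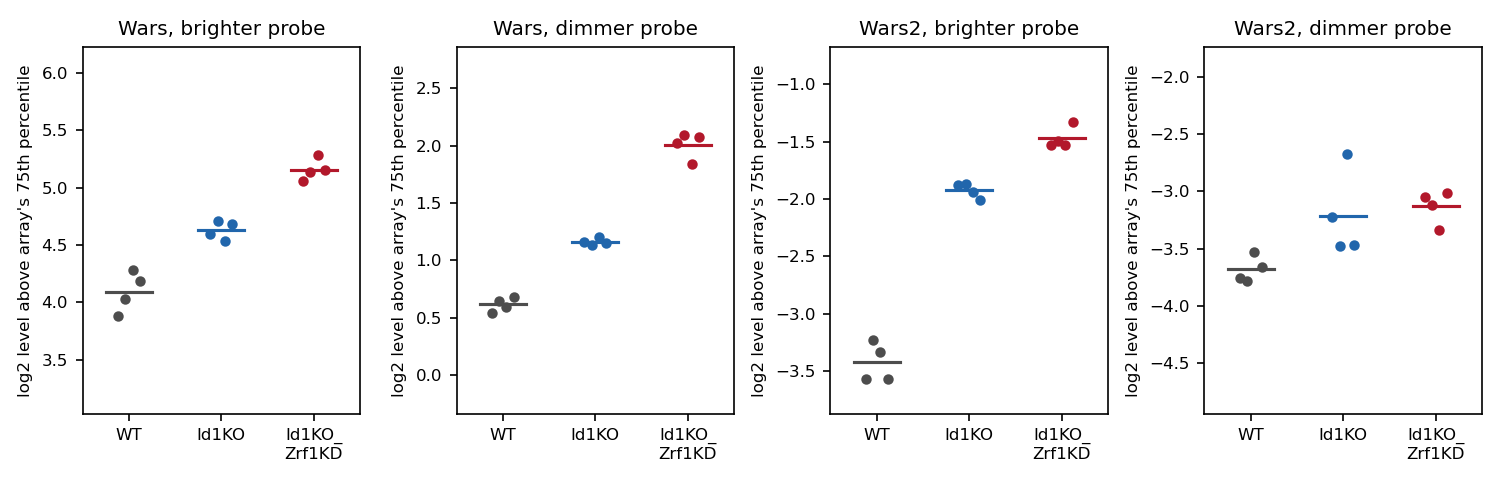
Level on each array (points; vertical axis in log2 units above the 75th percentile of the array, bars are means of 4) of both probes of Wars and Wars2 in the 3 groups (horizontal axis), each panel with its own range. Both Wars probes and the brighter Wars2 probe show 3 separate steps from WT over Id1KO to Id1KO_Zrf1KD, while the dimmer Wars2 probe separates only WT from the rest.

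Wars is also known as a gene induced by interferon. Of the 5 interferon-response genes that all WT and Id1KO arrays measured well above background, 4 rose (Isg15, Irf1, Bst2 and Psmb9) and 1 fell (B2m) in Id1KO. These counts stand beside 42.5% higher and 29.6% lower over all features. The other 5 of the 10 tested (Gbp2, Rtp4, Psmb8, Oasl2 and Ifit3) were well above background on at most 1 WT array and passed the filter through groups where they are high. The summed level of all 10 ranged from 27.6 to 30.3 over the WT arrays, from 53.3 to 55.1 over Id1KO and from 46.6 to 47.8 over Id1KO_Zrf1KD. This sum includes those 5 genes, so its difference from WT is partly set by the filter. Irf1, an interferon-induced transcription factor, was 3.22-fold higher in Id1KO than in WT (adjusted p = 6.3e-11) and 2.51-fold lower in Id1KO_Zrf1KD than in Id1KO (adjusted p = 5.4e-10). Isg15, a ubiquitin-like modifier, was 6.79-fold and 1.78-fold higher in these comparisons. B2m, the light chain of MHC class I, had log2 fold changes of -0.45 and 1.59, and Bst2, the membrane protein tetherin, of 0.72 and -0.33. Gbp2, a guanylate-binding protein, was well above background on 1 WT array and all 4 Id1KO arrays, and its log2 fold change after the knockdown was -0.44 (adjusted p = 0.0073). Oasl2 and Psmb8 were well above background on no array of WT. The part of an interferon response in the Wars values was not tested.

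Among the other mitochondrial genes that rose in Id1KO, Yars2 (tyrosine) lay at 1.52, 1.51, 1.44 and 1.5 in WT, at 2.23, 2.05, 2.24 and 2.22 in Id1KO and at 2.23, 2.25, 2.17 and 2.29 in Id1KO_Zrf1KD. Its WT arrays were the lowest 4, and the other 8 overlapped. Yars2 was 1.62-fold higher in Id1KO (0.69 ± 0.05; adjusted p = 2.5e-07). Ears2 (glutamate) lay at 0.96, 0.89, 0.79 and 0.59, at 1.36, 1.25, 1.41 and 1.37, and at 1.55, 1.54, 1.42 and 1.45. Its groups did not overlap either, though the highest Id1KO array and the lowest Id1KO_Zrf1KD array were 1.41 and 1.42. Ears2 was 1.45-fold higher in Id1KO than in WT (0.54 ± 0.08; adjusted p = 6.2e-05).

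Mars2 (methionine) lay at -1.34, -1.26, -1.29 and -1.42 in WT, at -0.79, -0.84, -0.90 and -0.75 in Id1KO and at -0.41, -0.37, -0.54 and -0.29 in Id1KO_Zrf1KD. Like Wars and Wars2 it formed 3 separate steps, 1.42-fold from WT to Id1KO (0.51 ± 0.06; adjusted p = 1.8e-05) and 1.33-fold from Id1KO to Id1KO_Zrf1KD (0.42 ± 0.06; adjusted p = 8.9e-05). Cars2 (cysteine) lay at 1.64, 1.58, 1.37 and 1.52, at 2.06, 2.09, 2.21 and 2.13, and at 1.75, 1.69, 1.57 and 1.82. Its Id1KO arrays were the highest 4, 1.51-fold above WT (0.60 ± 0.07; adjusted p = 1.8e-05) and 1.33-fold above Id1KO_Zrf1KD (adjusted p = 3.1e-04), and its other probe had log2 fold changes of 0.69 and -0.82 in the same 2 comparisons. Fars2 (phenylalanine) also passed the test, at 0.17 (adjusted p = 0.014), but not with the normexp background correction (0.063).

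Vars2, the mitochondrial valine enzyme, fell in Id1KO. It lay at 0.23, 0.15, -0.06 and -0.03 in WT, at -0.60, -0.68, -0.57 and -0.51 in Id1KO and at -0.52, -0.60, -0.70 and -0.45 in Id1KO_Zrf1KD. WT was above the other 8 arrays, and those overlapped. It was 1.58-fold lower in Id1KO (-0.66 ± 0.08; adjusted p = 1.5e-05), and -0.73 on its other probe. Pars2 (proline) lay at 2.48, 2.53, 2.75 and 2.58, at 2.33, 2.4, 2.24 and 2.39, and at 2.05, 2.05, 2.13 and 2.06. Its 3 groups formed steps downward, with log2 fold changes of -0.25 (adjusted p = 0.0037) and -0.26 (0.0024). On its other probe these were -0.32 (0.098) and -0.07 (0.73).

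Iars2 (isoleucine) lay at 2.24, 2.30, 2.19 and 2.25 in WT, at 2.18, 1.98, 2.17 and 2.10 in Id1KO and at 2.36, 2.29, 2.28 and 2.35 in Id1KO_Zrf1KD. The WT and Id1KO arrays were close but apart, and the log2 fold change of -0.14 (adjusted p = 0.030) missed the threshold without WT replicate 1 (0.050), 2 (0.079) or 4 (0.059) and without Id1KO replicate 2 (0.082) or 4 (0.061). Nars2 (asparagine) lay at -3.85, -3.61, -3.71 and -3.56, at -3.90, -4.34, -4.46 and -4.11, and at -3.77, -3.73, -4.00 and -3.69. It was near background, well above it on 1 of 4 Id1KO arrays. The log2 fold change of Nars2 was -0.52 in Id1KO against WT (adjusted p = 0.0026) and 0.01 (0.93) with the normexp background correction. Aars2 (alanine), Lars2 (leucine), Sars2 (serine) and Tars2 (threonine) did not pass, with log2 fold changes from -0.07 to 0.09.

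**Figure D3:**
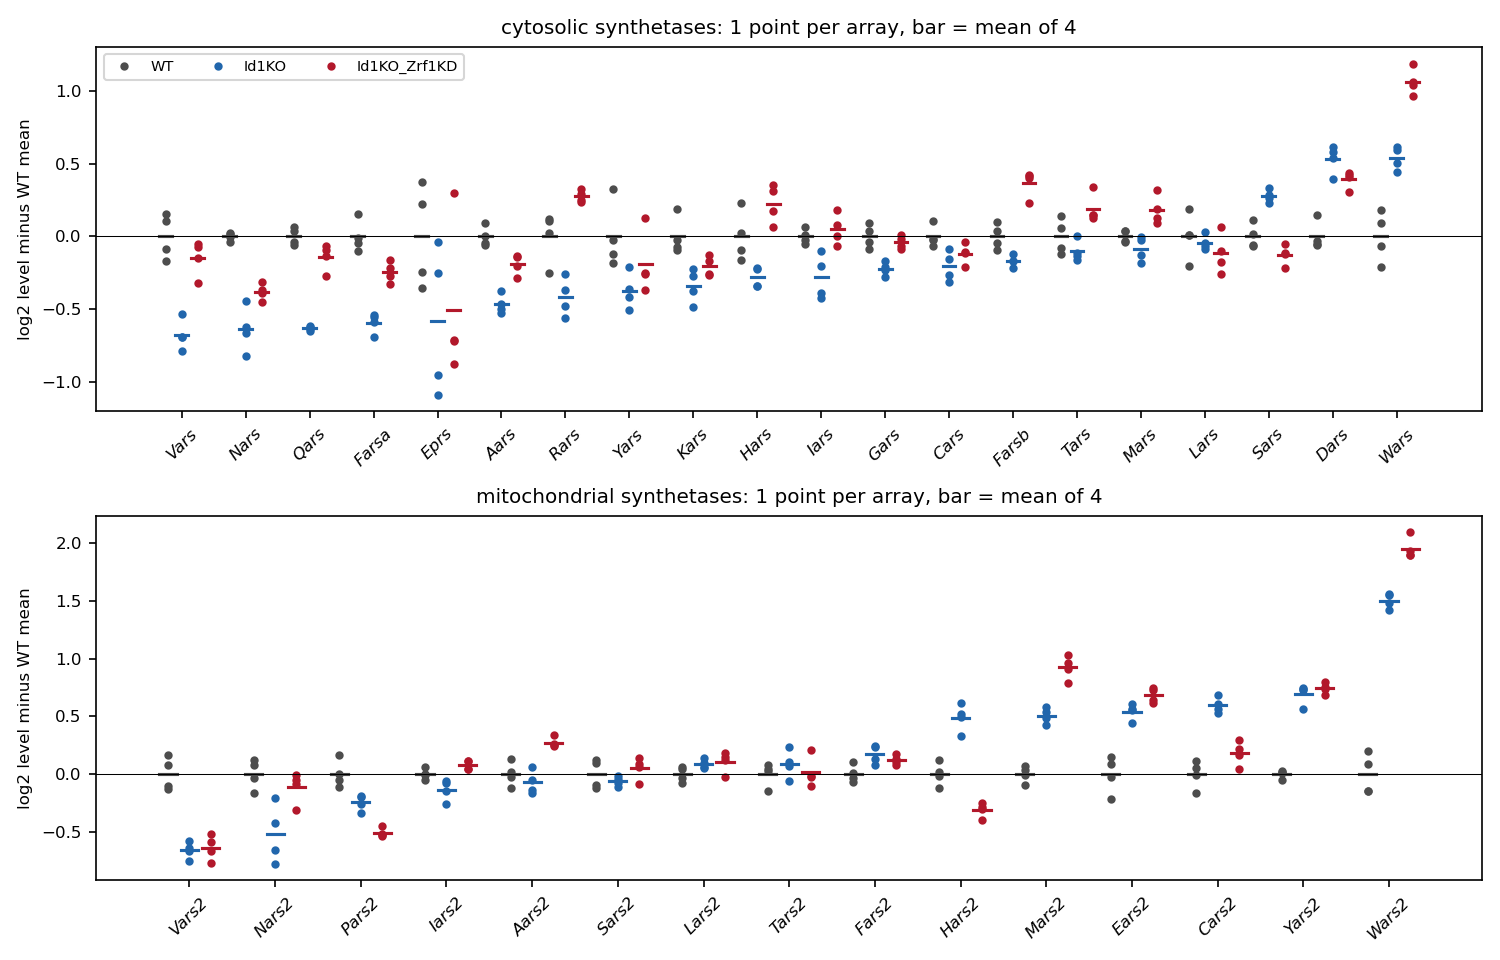
Level on each array minus the WT mean (vertical axis, log2 units; points are arrays, short bars means of 4) for every synthetase gene (horizontal axis), cytosolic genes above and mitochondrial genes below. In most cytosolic genes the Id1KO points lie lowest, while they lie highest in Sars, above WT in Dars, and between the other groups in Wars. Among the mitochondrial genes Wars2, Mars2 and, with a narrow gap, Ears2 show rising steps from WT over Id1KO to Id1KO_Zrf1KD.

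After the knockdown of Zrf1, cytosolic synthetase genes lay mostly higher than in Id1KO. Of the 20, 13 rose and 1, Sars, fell, with a median log2 fold change of 0.27. The background over all features was 32.3% higher and 39.8% lower, with a median of -0.09 and 72.1% in either direction, and among features named by a gene symbol it was 43.9% higher and 29.6% lower, with a median of 0.11. The arrays did not overlap for 12 genes higher and 1 lower, against a background of 30.4% and 36.1%. Within the slides the cytosolic median was 0.28, 0.32 and 0.28. This comparison and the one before it share the Id1KO arrays, so a low Id1KO value enters both, and their values are set side by side here without a test of their agreement.

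Rars, the arginine enzyme, lay at 0.84, 1.2, 1.12 and 1.21 in WT, at 0.73, 0.83, 0.53 and 0.61 in Id1KO and at 1.34, 1.39, 1.42 and 1.33 in Id1KO_Zrf1KD. The 3 groups did not overlap, with Id1KO lowest. It was 1.62-fold higher after the knockdown (0.69 ± 0.09; adjusted p = 3e-05), beside -0.42 in Id1KO against WT. Farsb, the beta subunit of the phenylalanine enzyme, lay at 3.68, 3.75, 3.55 and 3.60, at 3.52, 3.43, 3.47 and 3.47, and at 4.06, 4.07, 3.87 and 4.05. Its Id1KO_Zrf1KD arrays stood above the other 8, 1.45-fold above Id1KO (0.54 ± 0.06; adjusted p = 7.6e-06). Farsa rose by 0.35 on the log2 scale (adjusted p = 4.3e-04).

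Hars, the histidine enzyme, lay at 3.02, 3.23, 2.91 and 2.84 in WT, at 2.77, 2.66, 2.78 and 2.66 in Id1KO and at 3.36, 3.31, 3.06 and 3.18 in Id1KO_Zrf1KD. Only the WT and the Id1KO_Zrf1KD arrays overlapped. Hars was 1.42-fold higher after the knockdown (0.51 ± 0.09; adjusted p = 4.0e-04). Vars rose 1.44-fold (0.53 ± 0.09; adjusted p = 2.6e-04), Qars 1.41-fold (0.49 ± 0.05; adjusted p = 5.3e-06) and Aars 1.21-fold (0.28 ± 0.05; adjusted p = 7.2e-04).

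The other cytosolic genes that rose were Iars (0.33), Tars (0.29), Mars (0.27), Nars (0.26) and Gars (0.18), with adjusted p from 0.0019 to 0.0061. For Nars the call was lost with quantile normalization (log2 fold change 0.16, adjusted p = 0.059). Sars was 1.32-fold lower (-0.40 ± 0.05; adjusted p = 3.2e-05). The log2 fold changes of Cars (0.09), Dars (-0.14), Kars (0.13), Lars (-0.08), Yars (0.18) and Eprs (0.08) did not pass. Dars did pass without WT replicate 4 (adjusted p = 0.043), without Id1KO replicate 3 (0.019) and with quantile normalization (0.040). With quantile normalization 15 cytosolic genes were higher and 2 lower, and with the deposited values 16 and 1.

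The dim probe of Aars passed the filter only through the knockdown arrays, so that a difference there is partly set by the filter. It lay at -4.34, -4.72, -5.26 and -4.49 in WT, at -6.67, -5.50, -4.29 and -4.97 in Id1KO and at -3.45, -3.70, -3.67 and -3.43 in Id1KO_Zrf1KD. With no Id1KO array well above background it was at least 2.04-fold higher after the knockdown. For this bound an Id1KO value below the lowest signal that its array measured well above background was set to that signal. Before that step the means were -3.56 in Id1KO_Zrf1KD and -5.36 in Id1KO. No p-value is given, because the filter chose the probe by its high knockdown arrays. The bright probe and this one lie in the same transcript, from bases 3496 and 4178 on. In Id1KO_Zrf1KD against WT their log2 fold changes, with each probe fitted as a feature, were -0.19 (adjusted p = 0.0099) and 1.14. The filter enters the value of 1.14 too, so it cannot decide whether the probes disagree. With the mean of the kept probes in place of the brightest, the value of Aars against WT turned from -0.19 to 0.48 (adjusted p = 0.080), a mean that includes this dim probe.

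Mitochondrial synthetase genes again moved both ways after the knockdown, with 5 of 15 higher, 3 lower and a median log2 fold change of 0.05, shares near or under the background of 32.3% higher and 39.8% lower. Both shares were under those of features named by a gene symbol, 43.9% higher and 29.6% lower. Hars2, the mitochondrial histidine enzyme, lay at 2.16, 1.91, 2.05 and 2.02 in WT, at 2.36, 2.55, 2.65 and 2.53 in Id1KO and at 1.64, 1.75, 1.79 and 1.73 in Id1KO_Zrf1KD. Its 3 groups did not overlap, with Id1KO highest and Id1KO_Zrf1KD lowest. Hars2 was 1.74-fold lower after the knockdown (-0.80 ± 0.07; adjusted p = 1.4e-06) and 1.40-fold higher in Id1KO than in WT (0.49 ± 0.07; adjusted p = 7.2e-05). Hars and Hars2 are neighbours transcribed away from each other, and their log2 fold changes had opposite signs in both comparisons, -0.28 and 0.49 in Id1KO against WT and 0.51 and -0.80 after the knockdown. The log2 ratio of Hars to Hars2 within an array, which scaling between arrays does not alter, changed by -0.77 and by 1.31, in each case without overlap of the 4 against 4 arrays. This was not particular to neighbours. Ratios also changed without overlap in both comparisons for Cars to Cars2 (-0.80 and 0.50), Farsa to Fars2 (-0.76 and 0.40) and Farsb to Fars2 (-0.34 and 0.59). Sars to Sars2 did so the other way (0.34 and -0.52), and the remaining pairs overlapped in either or both comparisons.

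Wars2 rose after the knockdown by 0.45 ± 0.08 (adjusted p = 5.0e-04), a value that was 0.26 (0.0014) with normexp and 0.27 (0.026) over the mean of its probes. Mars2 rose by 0.42 and Aars2 by 0.34 ± 0.06 (adjusted p = 5.6e-04). Aars2 lay at 2.11, 1.86, 1.96 and 2.0 in WT, at 1.93, 1.85, 2.04 and 1.82 in Id1KO and at 2.23, 2.23, 2.24 and 2.32 in Id1KO_Zrf1KD. The knockdown arrays were all above the other 8. Iars2 had a log2 fold change of 0.21 (adjusted p = 0.0029), which missed the threshold with quantile normalization (0.097) and the deposited values (0.087), and that of Nars2, 0.40 (adjusted p = 0.011), turned to -0.10 (0.21) with the normexp background correction. Cars2 and Pars2 were lower, as given above. The log2 fold changes of Yars2, Ears2, Fars2, Lars2, Sars2, Tars2 and Vars2 did not pass and lay between -0.07 and 0.14, though Ears2 (0.14) passed without WT replicate 4 (adjusted p = 0.042). Fars2 passed as lower with quantile normalization (-0.14; adjusted p = 0.019) and in the deposited values (-0.13; 0.034).

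Against WT, the knockdown cells showed no common direction for the cytosolic genes, with 7 of 20 higher, 5 lower and a median log2 fold change of -0.12. The background was 32.4% higher and 32.2% lower, with a median of -0.02 (64.6% in either direction; among gene symbols 38.5% and 32.6%). Arrays did not overlap for 5 genes each way, against a background of 30.6% higher and 30.1% lower. The split depended on the setting: under quantile normalization or in the deposited values 4 were higher and 9 lower, and with the slide as a block 6 and 9. Without WT replicate 1 or Id1KO_Zrf1KD replicate 4 only 3 were lower. This comparison shares its arrays with the other 2. Wars was 2.09-fold higher (1.07 ± 0.09; adjusted p = 7.4e-07), followed by Dars (0.39), Farsb (0.37) and Rars (0.28), and Nars was 1.30-fold lower (-0.38 ± 0.07; adjusted p = 5.5e-04) and Farsa 1.19-fold lower (-0.25 ± 0.06; adjusted p = 0.0049). The calls of Hars (0.23), Tars (0.19) and Mars (0.18) upward and of Kars (-0.21) and Qars (-0.14) downward were each lost without 1 array or more. Without Id1KO_Zrf1KD replicate 3 the adjusted p was 0.099 for Tars, 0.053 for Mars, 0.080 for Kars and 0.069 for Qars, and without WT replicate 1 it was 0.071 for Hars, 0.090 for Tars, 0.093 for Kars and 0.066 for Qars. Under quantile normalization Tars (0.04; adjusted p = 0.58) and Mars (0.06; 0.33) did not pass either.

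Among the mitochondrial genes, 6 of 15 were higher in Id1KO_Zrf1KD than in WT and 3 lower, with a median of 0.11, near the background of 32.4% higher and under that of 32.2% lower. For features named by a gene symbol the background was 38.5% higher and 32.6% lower. Wars2 was 3.88-fold higher on its brighter probe (1.96 ± 0.08; adjusted p = 4.5e-09), and this log2 fold change was 1.19 with normexp, 1.23 with the deposited values and 1.25 over the mean of its probes. Mars2 was 1.9-fold higher (0.92 ± 0.06; adjusted p = 1.5e-07), Yars2 1.67-fold (0.74 ± 0.05; adjusted p = 1.7e-07) and Ears2 1.61-fold (0.68 ± 0.08; adjusted p = 1.1e-05). Aars2 (0.27) was higher as well, though not in the deposited values (0.16, adjusted p = 0.076), and so was Cars2 (0.18; adjusted p = 0.045), whose call was lost without any 1 of 9 arrays, with adjusted p up to 0.13 (without Id1KO_Zrf1KD replicate 4). The other probe of Cars2 lay on the opposite side in this comparison, at -0.12 (adjusted p = 0.28), the mean of its probes gave 0.03 (0.75), and the deposited values gave 0.10 (0.31). Vars2 (-0.64), Pars2 (-0.51) and Hars2 (-0.31) were lower. Wars and Wars2 were the 2 members that passed the test with a log2 fold change of at least 1 in any comparison.

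Eprs, which joins the glutamate and the proline enzyme in 1 protein, differed more by slide than by group. It lay at 0.99, 0.88, 1.46 and 1.61 in WT, at 0.98, 1.2, 0.15 and 0.28 in Id1KO and at 0.36, 0.52, 1.54 and 0.52 in Id1KO_Zrf1KD. The 3 groups overlapped widely, and the 5 arrays of slide 3 held 1.46 and 1.61 of WT, 0.98 and 1.2 of Id1KO and 1.54 of Id1KO_Zrf1KD. Without the slide in the fit, Id1KO differed from WT by a log2 fold change of -0.58 ± 0.31 (adjusted p = 0.11). With the slide as a block it was -0.58 ± 0.10 (adjusted p = 5.8e-04), and within the slides it was -0.84, -0.60 and -0.45. With that block Eprs also passed after the knockdown, at 0.29 (adjusted p = 0.027), and against WT, at -0.29 (0.032). The last of these also passed without Id1KO_Zrf1KD replicate 3 and with no block (-0.77; adjusted p = 0.030). A cause for the slide difference was not tested.

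**Figure D4:**
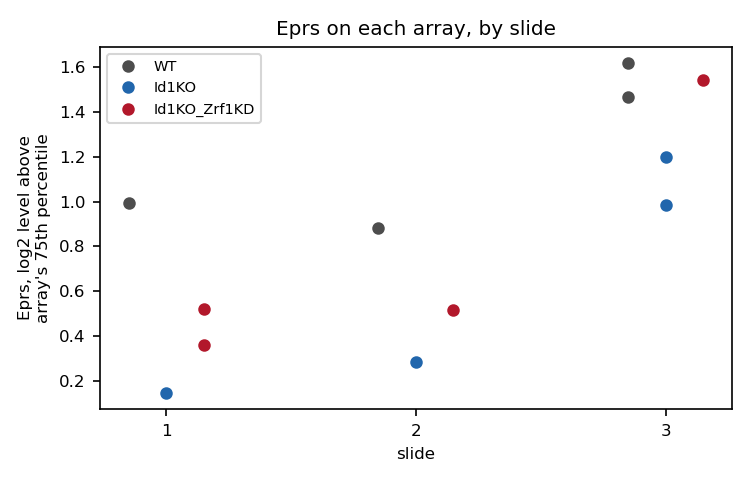
Level of Eprs on each of the 12 arrays (vertical axis, log2 units above the 75th percentile of the array) by slide (horizontal axis) and group (colour). The WT points lie above the Id1KO points on each slide, by 0.84, 0.60 and 0.45, and all groups lie higher on slide 3.

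Of the 8 enzymes of the multi-synthetase complex, 4 fell and 1 (Dars) rose in Id1KO, with a median of -0.31, and 4 rose and none fell after the knockdown, with a median of 0.20. Of the 12 cytosolic enzymes outside it, 9 fell and 2 rose in Id1KO (median -0.25), and 9 rose and 1 fell after the knockdown (median 0.29). Both sets stand beside the background of 29.6% lower and 42.5% higher in Id1KO and of 32.3% higher and 39.8% lower after the knockdown, and the difference between them was not tested. All 3 scaffold genes of the complex rose in Id1KO. Eef1e1 was 1.8-fold higher in Id1KO than in WT (0.85 ± 0.07; adjusted p = 9.9e-07), Aimp2 1.43-fold (0.51 ± 0.04; adjusted p = 7.8e-07) and Aimp1 1.22-fold (0.29 ± 0.08; adjusted p = 0.011). After the knockdown their log2 fold changes were -0.20 (adjusted p = 0.028), 0.05 (0.31) and -0.06 (0.54). With quantile normalization or the deposited values 2 of the 3 rose in Id1KO, and 1 rose and 1 fell after the knockdown.

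ATF4 raises genes of amino acid supply and tRNA charging when the integrated stress response is active, and 12 of the cytosolic synthetases are on the list of its known targets used here. Of these 12, 6 fell and 2 rose in Id1KO, with a median of -0.21, and 7 rose and 1 fell after the knockdown, with a median of 0.22. The background was 29.6% lower and 42.5% higher in Id1KO, and 32.3% higher and 39.8% lower after the knockdown. Among 31 genes of the ATF4 pathway that are not synthetases and that all arrays measured well above background, 10 rose and 11 fell in Id1KO, with a median of -0.09, and 10 rose and 13 fell after the knockdown, with a median of 0.01. These 31 genes stand beside the same background. With Slc7a11, which only the knockdown arrays measured, 11 of 32 rose in each comparison. The rise of Slc7a11 after the knockdown is partly set by the filter. Its value in Id1KO against WT compares groups in which no array measured it well above background. Of the 32, those that rose in Id1KO were 7 under quantile normalization or in the deposited values.

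Among the genes of that list, Ddit3 and Chac1 fell furthest after the knockdown. Ddit3 (CHOP), a proapoptotic transcription factor, had a level of 1.69 ± 0.05 (SD, n = 4) in Id1KO and of -0.91 ± 0.12 in Id1KO_Zrf1KD, 6.07-fold lower (adjusted p = 1.1e-10). Chac1, a glutathione-degrading enzyme, was 6.22-fold lower (adjusted p = 2.8e-11). Atf4 itself was 1.26-fold lower (-0.34 ± 0.06; adjusted p = 2.8e-04), after 1.12-fold higher in Id1KO than in WT (adjusted p = 0.022). Atf3, another transcription factor of the stress response, was 3.08-fold higher after the knockdown (adjusted p = 1.1e-10), and Slc7a11, the cystine transporter, was well above background on all 4 knockdown arrays and on none of the other 8.

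In Id1KO against WT, Asns, the asparagine synthetase of amino acid metabolism, was 1.99-fold lower (-1.0 ± 0.04; adjusted p = 5.1e-09), beside -0.64 for Nars, which charges asparagine tRNA, and Atf5 was 1.64-fold lower (adjusted p = 1.7e-07). The cationic amino acid transporter Slc7a3 was 2.71-fold higher (adjusted p = 9.3e-09) and the secreted glycoprotein Stc2 2.04-fold (adjusted p = 3.8e-07). Ddit3 had a log2 fold change of -0.18 there (adjusted p = 0.024).

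ATF4 binds, as a dimer with C/EBP proteins, to a composite element read on 1 strand as TTNCATCA. RefSeq promoter windows (GRCm38.p6, 250 bases before to 50 after a gene's start) were at hand for 12 cytosolic and 13 mitochondrial genes, and were searched on both strands. Cars, Hars, Lars, Mars, Nars, Rars, Vars, Wars, Hars2 and Pars2 had no entry. The letters occurred in the windows of 5 of 12 cytosolic genes (Aars, Gars, Iars, Tars and Yars) and of 0 of 13 mitochondrial genes (14 windows), against 3.97% of all 32851 windows, and in 26.5% of the 34 windows of the other ATF4 targets. The stricter TTGCATCA was in the windows of 4 cytosolic genes (Aars, Iars, Tars and Yars) and in 0.895% of all windows. The windows of Aars, Gars and Yars are shown with the match in capitals, because they hold it as a pair, as the TTT form and on the opposite strand.
Aars, chr8:111033592-111033891 (plus strand): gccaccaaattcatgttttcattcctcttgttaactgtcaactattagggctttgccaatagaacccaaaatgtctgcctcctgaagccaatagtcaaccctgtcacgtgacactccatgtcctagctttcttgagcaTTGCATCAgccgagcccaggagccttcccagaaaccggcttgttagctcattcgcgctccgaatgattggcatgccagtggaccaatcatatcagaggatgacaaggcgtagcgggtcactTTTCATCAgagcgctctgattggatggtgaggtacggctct
Gars, chr6:55037751-55038050 (plus strand): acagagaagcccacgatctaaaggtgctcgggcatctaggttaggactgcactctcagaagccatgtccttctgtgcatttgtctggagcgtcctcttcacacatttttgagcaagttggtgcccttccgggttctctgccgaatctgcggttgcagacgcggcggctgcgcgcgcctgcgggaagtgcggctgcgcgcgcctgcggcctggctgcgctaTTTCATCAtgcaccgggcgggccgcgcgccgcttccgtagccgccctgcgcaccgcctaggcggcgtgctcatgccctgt
Yars, chr4:129189653-129189952 (plus strand): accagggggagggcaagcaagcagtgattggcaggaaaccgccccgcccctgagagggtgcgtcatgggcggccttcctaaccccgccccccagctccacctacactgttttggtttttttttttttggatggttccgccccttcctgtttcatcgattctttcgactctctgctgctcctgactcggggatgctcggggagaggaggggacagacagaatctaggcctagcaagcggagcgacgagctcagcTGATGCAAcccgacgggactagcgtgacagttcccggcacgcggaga
The matches in Aars start at positions 139 and 260 of the window, that in Gars at 221 and that in Yars at 254. Of the 5 genes with the letters, 4 fell in Id1KO and 4 rose after the knockdown. Of the 7 cytosolic genes with a window and no match (Dars, Eprs, Farsa, Farsb, Kars, Qars and Sars), 4 fell and 2 rose in Id1KO, and 3 rose and 1 fell after the knockdown. Among all 20 cytosolic genes 13 fell and 3 rose in Id1KO, and 13 rose and 1 fell after the knockdown. Over all features 29.6% were lower and 42.5% higher in Id1KO, and 32.3% higher and 39.8% lower after the knockdown. A link between a match and the direction of change was not tested. A match describes the sequence and does not show binding.

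Other genes of tRNA supply were set beside the enzymes. Of 16 tested factors of tRNA maturation, export and editing, 11 rose and 4 fell in Id1KO, with a median log2 fold change of 0.40, and 5 rose and 9 fell after the knockdown, with a median of -0.28. The background over all features was 42.5% higher and 29.6% lower in Id1KO, and 32.3% higher and 39.8% lower after the knockdown. Dtd1, which removes D-amino acids from tRNA, was 2.21-fold higher in Id1KO than in WT (adjusted p = 8.8e-09), Trnt1, which adds the CCA end, 1.88-fold (adjusted p = 6.5e-09) and Pstk, a kinase of the selenocysteine pathway, 1.75-fold (adjusted p = 1.5e-07), while the pseudouridine synthase Pus1 was 1.59-fold lower (adjusted p = 5e-07). After the knockdown Pus3 was 1.82-fold (adjusted p = 9e-08), Dtd1 1.58-fold (adjusted p = 8.5e-07) and Pstk 1.57-fold lower (adjusted p = 9.9e-07), and Pus1 was 1.46-fold higher (adjusted p = 3.1e-06).

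Of 5 cytosolic elongation factor genes, which deliver charged tRNA to the ribosome and move it, 3 rose and 1 fell in Id1KO, and 1 rose and 2 fell after the knockdown. Eef1b2, a nucleotide exchange subunit, had log2 fold changes of 0.67 (adjusted p = 6.7e-08) and -0.75 (2.9e-08), and Eef2, the translocation factor, of -0.46 (1e-05) and 0.16 (0.017). These counts turned with the scaling: with quantile normalization or the deposited values, 1 rose and 4 fell in Id1KO, and 3 rose and 1 fell after the knockdown. Of 10 mitochondrial translation factors, 5 rose and 3 fell in Id1KO (median 0.31), and 4 rose and 3 fell after the knockdown (median 0.01), where 2 rose under quantile normalization or in the deposited values. Both lists stand beside a background of 42.5% higher and 29.6% lower in Id1KO, and of 32.3% higher and 39.8% lower after the knockdown. Their difference from this background was not tested. Mtif2, the mitochondrial initiation factor, was 1.61-fold higher in Id1KO than in WT (adjusted p = 1.7e-07) and 2.27-fold lower after the knockdown (adjusted p = 3.1e-09), and Tufm, the mitochondrial elongation factor Tu, was 1.28-fold lower (adjusted p = 2.7e-05) and 1.51-fold higher (adjusted p = 4.1e-07).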

How the data were processed

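Per the file headers, the authors ran Agilent Feature Extraction (version 10.7.3.1) on the scans. The deposited files give, for each of 62976 spots, the intensity as a background-subtracted processed signal, as a mean signal with its local background, and flags of 0 or 1. The authors' deposited matrix holds log2 values whose columns share a median of 6.55, with scaling and background correction not given in the sources used here. Levels were computed as log2 of the processed signal minus the array's 75th percentile over non-control spots, without flagged spots (108 to 302 per array), and averaged over the spots of a probe. Probe coordinates are those of the files (mm9).

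The groups were compared with limma 3.58.1 (R 4.3.3 with data.table, version 1.17.8) in 1 fit of all 12 arrays, two-sided, with Benjamini-Hochberg adjustment over the 22590 features, of which 215 lack a value on an array. On simulated data of 22375 features for Id1KO against WT, 82 of 100 features changed by 1 log2 unit were recovered, 59 of 100 changed by 0.5, and 9 unchanged features were called. The simulation changed 100 features at each size, whereas 72% of the real features were called in this comparison. Its figures therefore do not give the recovery or the false calls of the real comparison. The number of arrays limits the precision. Members whose log2 fold change reached 1 either way, and otherwise up to 5 each way per compartment in Id1KO against WT and Id1KO_Zrf1KD against Id1KO, are given with every array, and of each other list up to 4 genes with the smallest adjusted p. The members and lists were chosen with earlier results of these data known. Arrays of the same replicate number had a median correlation of deviations of -0.20 (-0.44 to 0.40), and arrays of the same slide 0.24, so the numbers were not used as pairs. Alternatives were other background corrections, scalings, filters, probe rules, the slide or the replicate number as a block, 2 groups in the fit and leaving out each array. The following were chosen after the data were seen: each kept probe as a feature, the background over gene symbols, within-slide fold changes, and other lists counted over genes that all arrays of both groups measured well above background.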

Additional observations from a re-analysis of the deposited data

Results flagged for a closer look

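In 7 of 105 sets of 4 arrays (35 genes in 3 groups), 1 array stood far from the other 3 by Dixon's test at the 95% level; chance alone flags about 1 set in 20, or 5.25 here. Replicate 3 of Id1KO_Zrf1KD was the array apart in 4 of them: for Eprs at 1.54 (the others 0.36 to 0.52), Farsb at 3.87 (4.05 to 4.07), Tars at 5.17 (4.95 to 4.97) and Pars2 at 2.13 (2.05 to 2.06). That array is the only knockdown array on slide 3. Without it, the log2 fold change of Tars against WT was 0.14 (adjusted p = 0.099). The other 3 sets were Dars in WT, where replicate 4 lay at 0.34 (the others 0.13 to 0.16), Aars2 in Id1KO_Zrf1KD, where replicate 4 lay at 2.32 (2.23 to 2.24), and Yars2 in Id1KO, where replicate 2 lay at 2.05 (2.22 to 2.24). Without WT replicate 4, Dars passed in Id1KO_Zrf1KD against Id1KO (-0.14; adjusted p = 0.043).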

How the results depend on the processing

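Of the 105 gene results (35 genes in 3 comparisons), 98 kept their direction and their side of the threshold with the normexp background correction, 86 with quantile normalization, 88 with the deposited values, 98 with the slide as a block and 99 without the filter on dim probes. Those that reversed were Sars in Id1KO against WT (-0.0189 with quantile normalization, -0.0425 in the deposited values), Nars2 with normexp (0.00716 in Id1KO against WT, -0.10 in Id1KO_Zrf1KD against Id1KO) and Aars in Id1KO_Zrf1KD against WT (0.48 with the mean of its probes). With 1 array left out in turn, 1208 gene results stayed on their side, 43 lost a call and 9 gained one.

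The counts of called members that moved by over 1.5 times were these. Cytosolic genes lower after the knockdown numbered 2 in place of 1 with quantile normalization, and 1 to 2 with an array left out. In Id1KO_Zrf1KD against WT, cytosolic genes higher numbered 4 under quantile normalization or in the deposited values, and those lower 9 with either, 9 with the slide as a block, 3 with no filter on dim probes and 3 to 6 with an array left out. ATF4 targets higher in Id1KO numbered 7 with quantile normalization or the deposited values. With the same 2 settings, elongation factors numbered 1 higher and 4 lower in Id1KO and 3 higher and 1 lower after the knockdown, scaffold proteins 1 higher and mitochondrial factors 2 higher after the knockdown. With normexp, 2 elongation factors were higher and 0 scaffold proteins lower after the knockdown. The causes were not tested.

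With the replicate number as a block, 102 of 105 gene results kept their call, Iars2 (adjusted p = 0.059), Tars (0.051) and Cars2 (0.071) lost one, and 13 cytosolic genes were lower in Id1KO. With an array left out, 11 to 13 cytosolic genes were lower and 3 higher in Id1KO, and 13 were higher after the knockdown. Dim signals limit Nars2, the dimmer probes of Aars and Wars2, and every fold that rests on them.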
